A study of Mus musculus with 2 samples.

Results

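The genes described here are 38 forkhead (Fox) transcription factor genes in 17 subfamilies, chosen by symbol, and 119 of the 48295 Isl1 peaks in the list were assigned to them. Forkhead factors share a winged-helix DNA-binding domain and are grouped into lettered subfamilies. Several act in the second heart field (SHF), the pool of progenitors behind the heart tube that builds the outflow tract and right ventricle and depends on the LIM-homeodomain factor Isl1. Foxc1, Foxc2 and Foxa2 act upstream of Tbx1 in the pharyngeal region, Foxh1 carries Nodal and Smad signals to the outflow tract gene Mef2c, and Foxp1 controls cardiomyocyte proliferation and outflow tract septation. FoxA proteins are also the classical pioneer factors, able to bind DNA in closed chromatin.

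Isl1 binding was measured by ChIP-Seq in C57BL/6 mouse embryos at E8.25-E9. The cardiogenic mesoderm and heart region of 60 to 80 embryos was pooled, and chromatin was precipitated with a monoclonal antibody against Isl1 from the Developmental Studies Hybridoma Bank. The deposited list gives each peak with its position on mm9, its signed distance to the closest transcription start site (TSS) and the gene of that TSS. The input was not analysed here. The list is that of 1 labelled ChIP sample and carries no height, enrichment, p-value or read number, so depth is unknown and nothing below could be tested against replicates. Intervals cover counting error only, and peaks along a gene are not independent of each other.

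A purine or pyrimidine run, meaning at least 25 consecutive purines or pyrimidines on the reference strand within 100 bp of the peak midpoint, was present at 112 of the 119 forkhead peaks. The share in the whole list was 94.1%, and the origin of the runs was not tested.

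The sequences that carry this feature are shown for the closest peaks of Foxc1 and Foxp1, both SHF genes, in windows of 200 bp around the midpoint on the forward strand of NCBIM37, the assembly of mm9. The longest run is in capitals.
Foxc1, chr13:31818721-31818920: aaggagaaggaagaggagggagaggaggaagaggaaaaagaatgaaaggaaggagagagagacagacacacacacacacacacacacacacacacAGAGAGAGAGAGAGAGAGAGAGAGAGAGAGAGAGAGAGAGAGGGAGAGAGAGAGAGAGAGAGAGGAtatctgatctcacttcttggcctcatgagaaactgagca
Foxp1, chr6:99213381-99213580: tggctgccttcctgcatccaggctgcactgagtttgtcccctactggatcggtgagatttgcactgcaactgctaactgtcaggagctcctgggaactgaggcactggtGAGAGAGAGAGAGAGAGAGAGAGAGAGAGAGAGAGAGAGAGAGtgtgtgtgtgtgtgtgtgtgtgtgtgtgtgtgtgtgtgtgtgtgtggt
The Foxc1 window held a purine run of 66 bases built mostly from AG repeats. A run of 43 purines at Foxp1 was followed by 23 units of a GT repeat.

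Of the 38 forkhead genes, 23 had at least 1 peak assigned (60.5%, 95% Wilson interval 44.7 to 74.4%). Over all 22226 protein-coding gene names of GENCODE vM1 the share was 45.5%, which lies inside that interval. Symbols of the list were matched to these names, so a gene named otherwise in the list counts as without a peak. The shares over all genes by symbol may therefore be too low, whereas all 38 members were matched. The members with a peak carried a median of 4 peaks each, against 2 for the 10120 protein-coding genes with a peak. Genes with at least 2 peaks made up 47.4% of the forkhead genes (18 of 38, interval 32.5 to 62.7%) and 26.9% of all genes. At least 5 peaks were assigned to 10 of the 38 (26.3%, interval 15.0 to 42.0%) and to 9.58% of all genes, and at least 10 peaks to Foxp1 and Foxo1 alone (5.26%, interval 1.46 to 17.3%, against 3.39%). A limit of 10 kb from the TSS left 7 forkhead genes (18.4%, interval 9.22 to 33.4%), near the 22.6% of all genes. Within 1 kb there were 3 (7.89%, interval 2.72 to 20.8%, against 4.55%). The background lay below the forkhead interval at 2 and at 5 peaks per gene, and inside it for 1 peak, for 10 peaks and for peaks near the TSS. The members were chosen with earlier results of these data known. Genes were not matched for the stretch of genome closest to their TSS, with medians of 89.0 kb for forkhead and 45.5 kb for all genes. Assignment to the closest GENCODE TSS gave 25 genes with a peak (65.8%, interval 49.9 to 78.8%, against 54.6%). With peaks free of a run, 6 of the 38 genes had one (15.8%, interval 7.44 to 30.4%), against 8.53% of all genes.

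**Figure D1:**
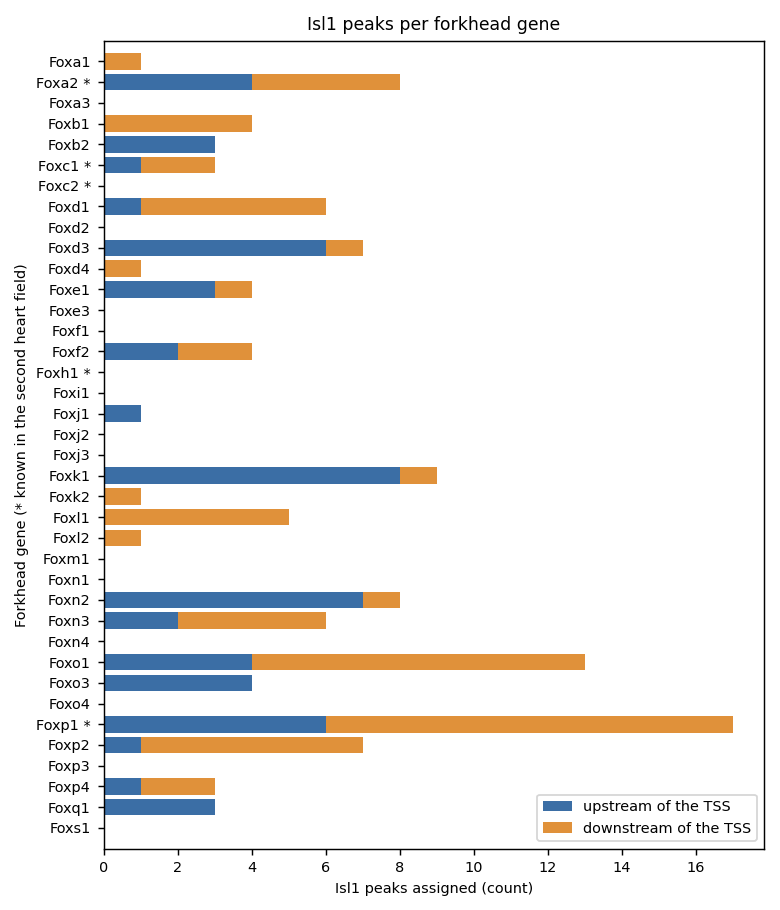
Number of Isl1 peaks assigned to each of the 38 forkhead genes (count), split into peaks upstream and downstream of the TSS, with SHF genes marked by an asterisk. Foxp1 had 17 peaks and Foxo1 13, while 15 genes, Foxc2 and Foxh1 among them, had 0.

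Among the 5 forkhead genes known in the SHF, peaks were assigned to Foxp1 (17 peaks), Foxa2 (8 peaks) and Foxc1 (3 peaks), and to neither Foxc2 nor Foxh1. The share with a peak over all protein-coding genes was 45.5%, and 5 genes are too few to set against it. Of these 28 peaks, 11 lay upstream and 17 downstream of the TSS (39.3% upstream, against 47.5% in the whole list). Within 10 kb were 2 of the 28 (7.14%, against 15.9%). All 28 held a run, so no peak of an SHF forkhead gene remained once peaks with a run were set aside.

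Foxp1, a repressor needed for cardiomyocyte proliferation and outflow tract septation, had the most peaks of the family and ranked 252nd among the 10120 protein-coding genes with a peak. Its closest peak, chr6:99213267-99213696, was 430 bp wide and lay in a Foxp1 intron 3.03 kb downstream of the TSS. The next, chr6:99381597-99382155, lay 3.46 kb downstream of another TSS, in sequence that GENCODE places in an intron of the neighbour Eif4e3. The distances in the list refer to 4 different Foxp1 start sites, which were closest to 6, 5, 2 and 4 of its peaks. Side refers to the closest of these sites, so a peak called upstream can lie downstream of another Foxp1 start site. The peak chr6:99009813-99010194, for example, was listed 31.7 kb upstream but lay in a Foxp1 intron. By the gene models of GENCODE vM1, 6 of the 17 peaks lay in Foxp1 introns and 4 were intergenic. The other 7 lay in introns of Eif4e3 alone, which encodes a cap-binding protein. The Foxp1 model there starts at chr6:99216526, while start sites in the list reach chr6:99470987. Some peaks placed in Eif4e3 thus lie downstream of a listed Foxp1 start site and may lie in longer Foxp1 transcripts. The farthest peak, chr6:98645543-98646059, was 332.5 kb downstream of its TSS. By the TSS of GENCODE instead, 13 peaks were closest to Foxp1 and 4 of its listed peaks were closest to Eif4e3.

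Foxa2, which marks the node, floor plate and definitive endoderm and is transiently expressed in ventricular progenitors, had 4 peaks on either side and none near the gene. The closest, chr2:147910240-147910794, was intergenic, 555 bp wide and 37.8 kb upstream. The other upstream peaks were at 64.8, 83.8 and 96.6 kb. Downstream, the peaks lay at 86.3, 96.5, 101.5 and 107.7 kb, so that all 8 fell between 37.8 and 107.7 kb from a TSS. Another 8 peaks further out were listed under A530006G24Rik, a RIKEN cDNA. Their closest protein-coding TSS was that of Foxa2, at 181.9 to 317.2 kb, which brings the Foxa2 count to 16 by GENCODE.

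Foxc1, which acts in pharyngeal and paraxial mesoderm and the neural crest, had 3 peaks, the closest of them at chr13:31818653-31818990, in intergenic sequence 79.7 kb upstream. The others were at 88.8 and 194.0 kb downstream, both in introns of Gmds, a gene of GDP-fucose synthesis. The territory of Foxc1 spanned 356.4 kb. The 3 peaks thus amount to 8.42 peaks per Mb (95% Poisson interval 1.74 to 24.6), against 18.9 peaks per Mb for the genome.

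For Foxc2, the partner of Foxc1 in outflow tract and vessel development, no peak was assigned. The nearest peak in the list, chr8:123591758-123592072, lay 48.2 kb from its TSS and was listed under Fendrr, a long noncoding RNA next to Foxf1. The territory of Foxc2 measured only 9.77 kb. Foxh1, the Smad-binding factor of Nodal signalling, had a territory of 5.52 kb, the smallest of the 38. The nearest peak, 13.3 kb away at chr15:76486768-76487363, was listed 0.266 kb from the TSS of Cyhr1 and held no run, its longest stretch being 7 bases.

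**Figure D2:**
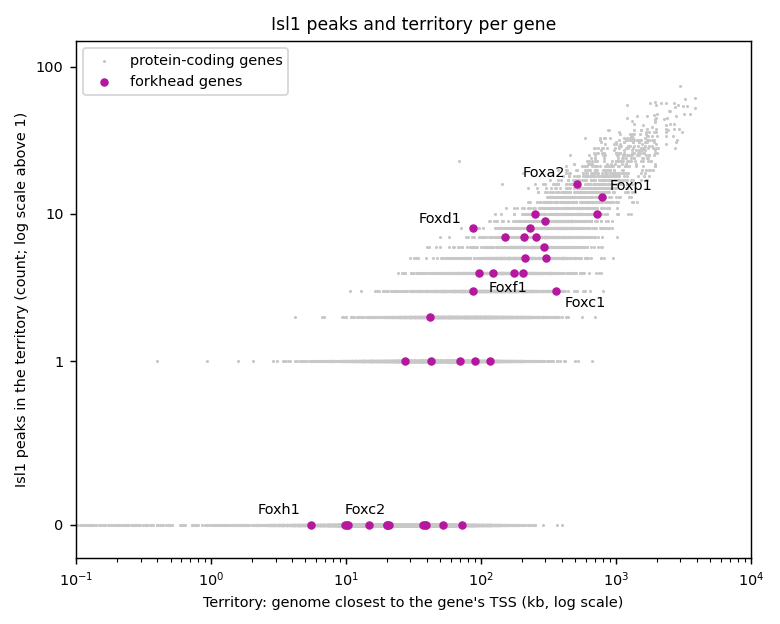
Number of Isl1 peaks (count) against territory (kb) for each gene, both by the closest GENCODE TSS and on log scales, the count being linear below 1, with forkhead genes over all protein-coding genes. Foxc2 and Foxh1 sit at 0 peaks with territories of 9.77 and 5.52 kb, and Foxd1 lies above the other forkhead genes of similar territory with 8 peaks.

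Forkhead genes without a listed peak had smaller territories. The 23 genes with a peak had a median territory of 209.9 kb (20.1 to 793.4 kb), and the 15 without one had a median of 27.3 kb (5.52 to 174.5 kb), so the ranges overlapped. Forkhead genes as a whole had larger territories than protein-coding genes, with medians of 89.0 and 45.5 kb. Across the 38 genes, territory and the number of peaks in it rose together (Spearman's rho 0.88), as they did across 22225 genes (rho 0.73). These are descriptions across genes that share 1 peak list. Per Mb of territory the forkhead genes held 23.0 peaks (140 peaks in 6.10 Mb, 95% Poisson interval 19.3 to 27.1) against 18.9 in the genome. The genome value lay just below that interval.

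The highest density of the 38 genes was at Foxd1, a factor of kidney stroma and retina, with 91.4 peaks per Mb (interval 39.5 to 180.2). That density counts 8 peaks by the closest GENCODE TSS, including peaks at 56.6 and 66.1 kb listed under 2310005E17Rik. The 6 peaks listed under Foxd1 formed a row within 31.4 kb of the TSS. The closest, chr13:99131559-99132162, lay 7.66 kb downstream. It was followed by peaks at 11.3, 16.2, 21.2 and 31.4 kb on the same side, and 1 peak lay 12.2 kb upstream. All 6 held a run.

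FoxO proteins are shut out of the nucleus by insulin and Akt signalling, and Foxo1 is needed for vessel formation in the embryo. Foxo1 had 13 peaks, the most after Foxp1, all of them intergenic. Upstream, 3 peaks were packed between 15.4 and 17.7 kb from the TSS, with gaps of 295 and 822 bp between them, and the other upstream peak was at 64.0 kb. The 9 downstream peaks lay beyond the end of the gene, at 144.0 to 235.4 kb, and 6 of them were closest to the gene model Gm10293 by GENCODE. Foxo3 had 4 peaks, all upstream, at 23.1 to 68.3 kb, of which 3 lay in introns of Lace1. Foxo4 had 0 peaks, and the nearest was 16.1 kb away and listed under Il2rg.

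The FoxP relatives of Foxp1 are repressors in lung, brain and immune cells. Foxp2, a factor of brain and lung, had 7 peaks, 6 of them inside its introns, with the closest 12.9 kb upstream of an internal start site at chr6:15122443-15122836. Of the 3 peaks of Foxp4, which acts in foregut and heart, 2 were intronic and 1 lay 3.67 kb upstream at chr17:48064944-48065553. By GENCODE, 4 further peaks listed under Mdfi and 1700122O11Rik were closest to Foxp4, for a total of 7. The regulatory T cell factor Foxp3 had 0 peaks.

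Foxk1 and Foxk2, which regulate autophagy and metabolism in many tissues, differed in number and place of peaks. Foxk1 had 9 peaks, 8 of them upstream, out to 542.1 kb, and 5 of these lay in introns of Sdk1, a cell adhesion gene. The 4 farthest were closest to Sdk1 by GENCODE. Its remaining peak, chr5:142904216-142904717, was in a Foxk1 intron 27.0 kb downstream. Foxk2 had a single peak, chr11:121121072-121121756, over a coding exon 0.113 kb downstream of the TSS.

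Foxn2 and the checkpoint repressor Foxn3, both broadly expressed, had 8 and 6 peaks. At Foxn2, 7 peaks were strung out upstream from 17.5 to 142.8 kb, and the other covered the start of the gene at chr17:88840047-88840433. At Foxn3, 4 peaks lay in its own introns and 2 were upstream, the closest 13.3 kb away. Foxn1, the factor of thymus epithelium, and Foxn4, of retinal progenitors, had 0 peaks, and Foxn4 was the member farthest from any peak, at 223.7 kb.

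Of the forkhead genes of foregut and pharyngeal endoderm, Foxa1 had 1 peak, 29.8 kb downstream, and Foxa3 had 0. Foxe1, required for migration of the thyroid bud, had 4 peaks. The closest, chr4:46357665-46358138, overlapped its coding exon 0.835 kb downstream of the TSS, and the others were 33.9, 43.5 and 69.9 kb upstream. Foxi1, of inner ear and kidney intercalated cells, had 0 peaks.

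Foxf1, Foxf2 and Foxl1 respond to hedgehog signals in the mesenchyme around the gut, and each lies in a cluster with a FoxC gene. On chromosome 13, the start sites of Foxq1, Foxf2 and Foxc1 span 248.5 kb and 5 peaks lay between them. Foxf2 had 4 peaks, at 14.0 and 21.2 kb upstream and at 60.2 and 90.4 kb downstream, and Foxq1 had 3, all upstream at 43.1 to 127.5 kb. On chromosome 8, the start sites of Foxf1, Foxc2 and Foxl1 span 43.6 kb and no peak lay between them. Foxl1 had 5 peaks, all downstream at 51.6 to 191.4 kb, in introns of the overlapping gene model Gm20388. Foxf1 had 0 peaks in the list. By GENCODE, however, 4 peaks listed under Fendrr were closest to Foxf1 among protein-coding genes, at 16.4, 30.9, 48.2 and 128.2 kb, so that the absence of Foxf1 from the list rests on how the noncoding neighbour was counted.

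**Figure D3:**
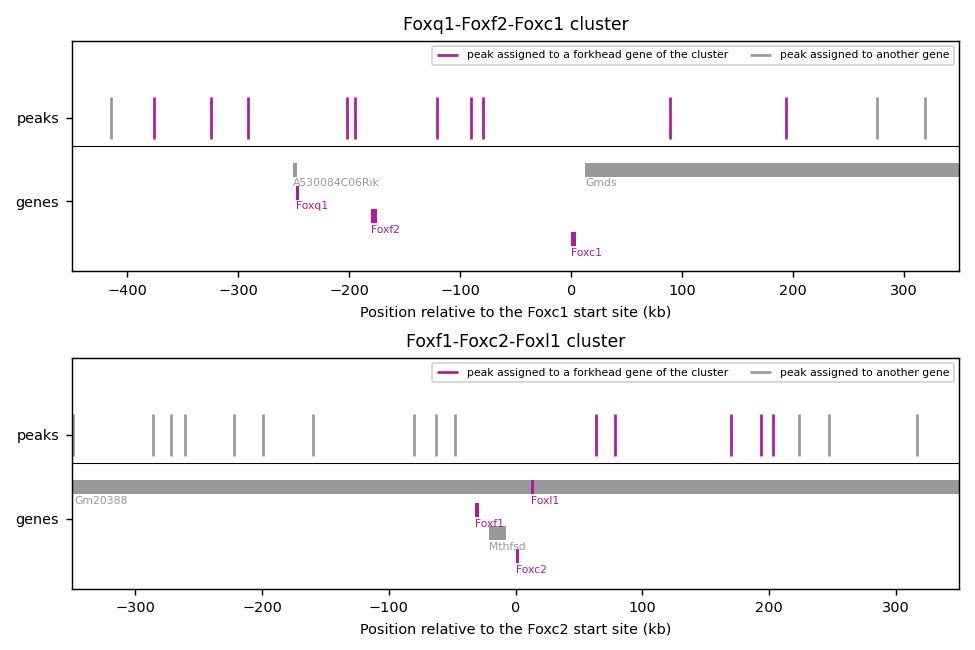
Positions of Isl1 peaks (vertical lines) and protein-coding genes (bars, drawn at least 3 kb wide) around the Foxc1 start site (top) and the Foxc2 start site (bottom), in kb, with Foxl1 included. In the upper cluster 5 peaks lie between the start sites of Foxq1 and Foxc1, and in the lower cluster 0 peaks lie between those of Foxf1 and Foxl1.

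In the neural and neural crest group, Foxd3, which maintains neural crest progenitors, had 7 peaks, 6 of them upstream. The closest, chr4:99310448-99311141, was 12.2 kb upstream, and the narrowest forkhead peak, of 182 bp, lay 29.8 kb upstream. Foxb1, of the mammillary region and diencephalon, had 4 peaks, all downstream and out to 113.7 kb. The 3 peaks of its relative Foxb2 were all upstream, at 10.8 to 41.0 kb. A further 6 peaks on the other side of Foxb1 were listed under B230323A14Rik and were closest to Foxb1 by GENCODE. Foxd4 had 1 peak, 4.86 kb downstream. Foxd2 and the lens factor Foxe3, whose start sites are 17.2 kb apart, had 0 peaks and no peak between them.

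Of the remaining members, Foxl2, which maintains ovarian granulosa cells, had 1 peak 10.7 kb downstream. Foxj1, the master factor of motile cilia, had 1 peak listed 28.5 kb upstream, in an intron of Rnf157 whose own TSS was 3829 bp away. No peak was assigned to the cell cycle factor Foxm1, to Foxs1, or to Foxj2 and Foxj3. The last pair each had a peak in the gene body that carried another name. A peak inside Foxj2, chr6:122781384-122782076, was listed under Mir7231, and a peak inside Foxj3, chr4:119291712-119291908, under Guca2a. Among the 15 genes with no assigned peak, the nearest peak of any name was at a median of 17.0 kb, from 2.14 kb at Foxj3 to 223.7 kb at Foxn4. An absent assignment was therefore not the same as an empty neighbourhood.

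Over all 119 forkhead peaks, 57 lay upstream and 62 downstream of the TSS (47.9% upstream, against 47.5% in the whole list). The median distance was 60.2 kb (0.113 to 542.1 kb), against 58.8 kb in the list. Within 10 kb lay 8 forkhead peaks (6.72%), fewer in proportion than the 15.9% of the list. Between 10 and 100 kb lay 74 (62.2%), against 46.6% of the list, and beyond 100 kb lay 37 (31.1%), against 37.5%. Territories, with medians of 89.0 kb for forkhead and 45.5 kb for all genes, were not matched here. Their part in these distances was not tested. By midpoint, 74 peaks were intergenic (62.2%), 43 intronic (36.1%) and 2 in coding exons (1.68%), where the list had 66.6%, 32.3% and 1.11% in exons of any kind. Of the 43 intronic peaks, the GENCODE models placed 20 in introns of the forkhead gene itself and 23 in those of a neighbour alone. The 23 include Foxp1 peaks downstream of listed start sites that the GENCODE model of Foxp1 does not reach. The median width was 489 bp (182 to 740 bp), against 467 bp. Neighbouring peaks of a gene were separated by a median of 24.6 kb, and 4 of 96 gaps were shorter than 1 kb, all at Foxo1.

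**Figure D4:**
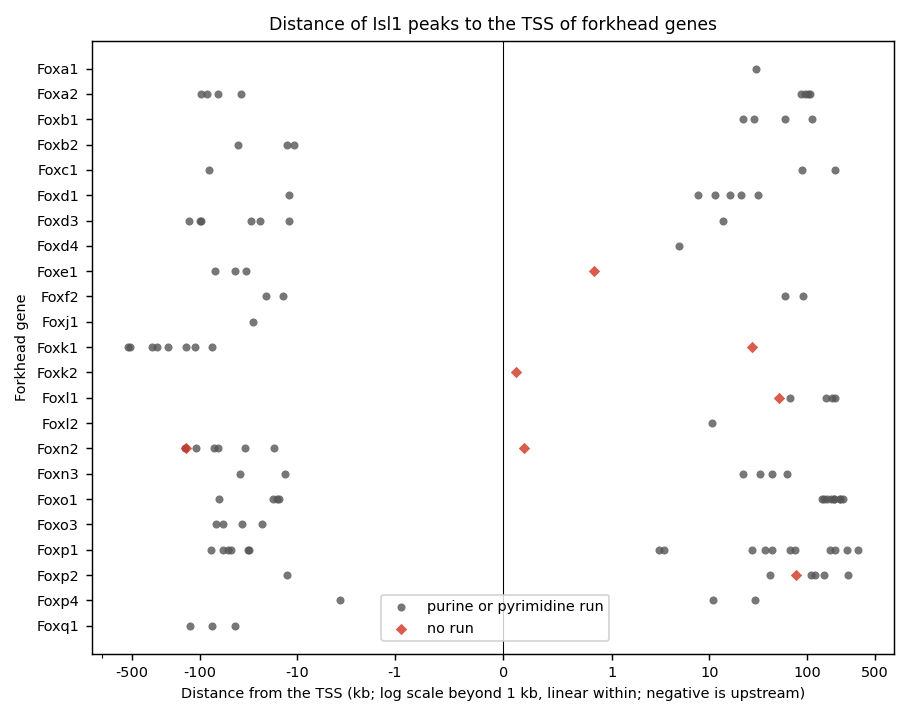
Signed distance (kb) of each of the 119 forkhead peaks to the TSS given in the list, on an axis that is logarithmic beyond 1 kb, with peaks that hold a purine or pyrimidine run as grey circles and the 7 without one as red diamonds. The 3 peaks within 1 kb of a TSS, at Foxk2, Foxn2 and Foxe1, are all red.

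The sequence under the forkhead peaks followed that of the list. A run lay at 94.1% of them (95% Wilson interval 88.4 to 97.1%), and at 4.20% of the 238 windows placed 1 kb to either side. The median of the longest stretch was 98 bases in the forkhead windows, 92 bases in all windows of the list and 10 bases at 1 kb. Repeats of CT or GA over at least 4 units were present at 46.2% of the forkhead peaks and 55.1% of the list. On the reference strand, 69 of the 112 runs were purine (61.6%, interval 52.4 to 70.1%), against 50.0% in the list. At Foxp1, 15 of 17 runs were purine, and without Foxp1 the share was 54 of 95 (56.8%, interval 46.8 to 66.3%), an interval that includes the share of the list. Read along the coding strand of each gene, 47.3% of the 112 runs were purine.

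**Figure D5:**
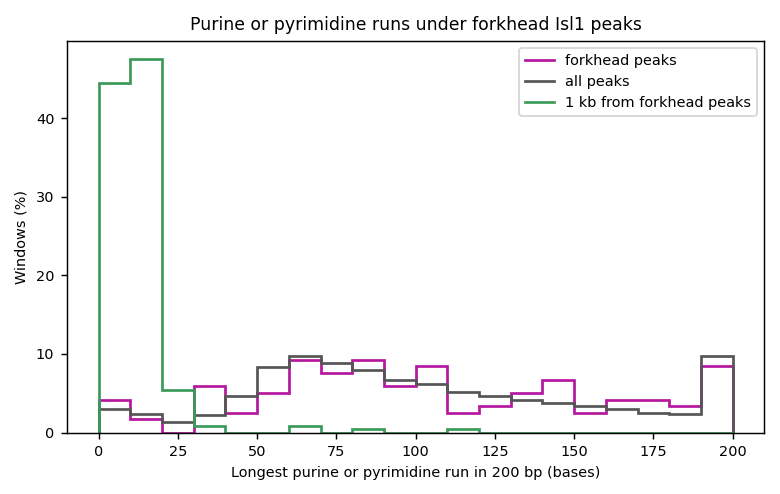
Share of windows (%) by the longest purine or pyrimidine stretch in 200 bp (bases, in bins of 10), for the 119 forkhead peaks, all 48295 peaks and 238 windows 1 kb from the forkhead peaks. Only 10 of the 238 windows 1 kb away reach 25 bases, while both sets of peaks extend up to 200.

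Core motifs were counted on both strands of the same windows. TAAT, the homeodomain core that Isl1 recognizes, was present at 38 of the 119 forkhead peaks (31.9%), in 35.3% of all peaks and in 69.3% of the windows 1 kb from the forkhead peaks. The longer TAATG, which contains TAAT, was present at 14 (11.8%), against 11.4% of the list and 26.1% at 1 kb. The forkhead core TGTTTAC was found in 0 of 119 windows and in 0.979% of the list. A limit of 3 counts over 119 windows, which is not a Wilson limit, allows a share of up to 2.52%. At 1 kb TGTTTAC was present in 2.10% of the forkhead windows and 3.02% of those of the list. The variant TGTTTGC was found at 1 forkhead peak, an upstream peak of Foxp1, and in 1.40% of the list, against 4.62% and 4.23% at 1 kb. Runs take up much of these windows, and the part this plays in the motif counts was not tested.

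The 7 forkhead peaks without a run lay at Foxe1, Foxk1, Foxk2, Foxl1, Foxp2 and, with 2 peaks, Foxn2. The 3 peaks within 1 kb of a listed TSS, at Foxk2, Foxn2 and Foxe1, were all among them. By GENCODE, the Foxe1 peak lay 1.42 kb from its TSS. The windows of these 3 peaks had a GC content of 85.5%, 75.5% and 81.5% and held 42, 31 and 36 CG dinucleotides. In the whole list, 616 of the 1245 peaks within 1 kb (49.5%) held no run, against 4.18 to 5.63% in the classes further out. The 5 forkhead peaks between 1 and 10 kb, at Foxp1, Foxd1, Foxd4 and Foxp4, all held a run. The Foxe1 window, in coding sequence, is shown with each CG in capitals.
Foxe1, chr4:46357801-46358000: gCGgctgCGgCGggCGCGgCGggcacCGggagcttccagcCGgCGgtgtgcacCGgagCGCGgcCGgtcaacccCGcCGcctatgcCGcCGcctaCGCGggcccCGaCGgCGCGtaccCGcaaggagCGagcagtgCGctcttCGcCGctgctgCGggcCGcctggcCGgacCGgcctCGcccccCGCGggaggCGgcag
The other 4, beyond 1 kb, were at Foxk1, Foxl1, Foxn2 and Foxp2. The Foxk1 and Foxp2 peaks lay in introns, 27.0 and 76.9 kb downstream. The Foxk1 peak held a stretch of 22 purines, below the minimum for a run, and 11 units of a GA repeat. Most of the Foxp2 window was an interrupted GT repeat, with at most 6 units in a row. At Foxn2, 138.4 kb upstream, the window was made of CA repeats. At Foxl1 the midpoint was free of a run, but the peak itself held 1 of 188 bases away from its centre. Over the whole peak, the longest perfect dinucleotide repeat of these 4 ran from 6 units at Foxp2 to 28 at Foxl1. At the 3 peaks within 1 kb it was 2 to 4 units. A peak counted as without a run was thus not always free of repeats. The Foxl1 and Foxn2 windows are shown with the longest perfect dinucleotide repeat in capitals.
Foxl1, chr8:123703073-123703272: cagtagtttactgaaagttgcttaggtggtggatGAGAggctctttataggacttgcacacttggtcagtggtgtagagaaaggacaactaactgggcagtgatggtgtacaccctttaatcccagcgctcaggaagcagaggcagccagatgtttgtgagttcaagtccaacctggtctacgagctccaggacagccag
Foxn2, chr17:88701583-88701782: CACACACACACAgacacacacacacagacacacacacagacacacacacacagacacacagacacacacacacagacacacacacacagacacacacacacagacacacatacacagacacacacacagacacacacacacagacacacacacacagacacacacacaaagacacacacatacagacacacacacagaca
The Foxl1 window was the only 1 of the 7 that held TAAT, and its longest dinucleotide repeat was 2 units.

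Among further forkhead genes that are not in the set, Foxi2 had 12 peaks within 60.2 kb, Foxo6 had 7, Foxi3 had 3, Foxr2 had 1 and Foxr1 had 0. Among 18 genes that act with or under forkhead factors in the SHF and pharynx, 14 had a peak, and 9 had one within 10 kb. The shares over all protein-coding genes were 45.5% and 22.6%, but territories were not matched. Those of the 18 genes ran from 14.2 kb at Gli1 to 1229.8 kb at Mef2c, against a median of 45.5 kb over protein-coding genes. The 18 genes were also chosen with earlier results of these data known. Isl1 itself is in that list and held 33 of its 115 peaks, the most of the 18 genes. The SHF genes Tbx5 and Osr1 had 10 peaks each, Fgf10 had 8, Bmp4 had 3 and Fgf8 had 0. Tbx1, a FoxC and FoxA target, had 1 peak, 1.82 kb upstream. Shh, which acts upstream of these factors, had 5, the closest 12.6 kb upstream. Its effectors Gli2 and Gli3 had 9 and 12 peaks, and Smo and Gli1 had 0. Of the Nodal and Smad genes that work through Foxh1, Smad2, Smad3 and Smad4 had 6, 4 and 2 peaks, and Nodal had 0. The FoxH1 target Mef2c had 8 peaks, the closest 44.4 kb upstream, and Nkx2-5 had 4, the closest 11.5 kb upstream. Of these 115 peaks, 7 held no run, at Gli2, Gli3, Smad4, Osr1 and Tbx5. In the whole list, 2855 of 48295 peaks held none, a similar share.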

How the data were processed

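Isl1 ChIP-Seq peaks of 1 sample were analysed, from pooled hearts and cardiogenic mesoderm of E8.25-E9 embryos. The deposited list gives positions and signed distances in bp. Per the methods and the submitters' processing notes, the authors aligned reads to mm9 (bowtie2), discarded PCR duplicates (Picard 1.136), ran MACS with a p-value cutoff, dropped regions on the ENCODE blacklist and annotated the nearest TSS. The methods also describe intersecting the peaks of experimental replicates with bedtools, without saying whether this list is such an intersection. Only 1 ChIP sample is labelled here, so agreement between replicates could not be examined. No depth is given.

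A repeated header line inside the list was skipped. Forkhead peaks were those whose symbol equals a member of the set. Members and gene lists were chosen with earlier results of these data known. Territories, gene bodies and alternative assignments used protein-coding genes of GENCODE vM1 (NCBIM37, the assembly of mm9), where Foxf1 is named Foxf1a and Foxl1, typed as a pseudogene, was added. All 38 members were found. Sequence was read from NCBIM37 in windows of 200 bp. Shares have 95% Wilson intervals and peaks per Mb have exact Poisson intervals.

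Named in full were the 5 SHF genes, the 5 genes with the most peaks, genes with a peak within 10 kb and all genes without a peak, and the closest peak of the others where room allowed. Alternatives covered distance, width, runs, assignment and merging. Run finding, closest-TSS assignment and territories were tested on simulated data. Windows overlapping an annotated UTR are not printed. Some sequences and 1 gene of a comparison list are not reported here. Tables were handled in pandas 2.3.3 and numpy 2.4.6 under Python 3.11.15. Intervals came from scipy 1.17.1, genome sequence was read through pysam 0.24.0 from an index made by samtools 1.23.1, and plots were drawn in matplotlib 3.10.9.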

Additional observations from a re-analysis of the deposited data

How the results depend on the processing

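Of 20 alternative values, 14 stayed within 1.5 times of the main count or within its interval. With peaks within 10 kb of the TSS, the 23 forkhead genes and 119 peaks fell to 7 genes and 8 peaks. With peaks without a run they fell to 6 genes and 7 peaks. With peaks wider than the median of the list, 71 peaks were left, at 22 genes. A minimum of 40 bases for a run lowered the share of forkhead peaks with one from 94.1 to 88.2%. Assignment to the closest GENCODE TSS gave 25 genes and 140 peaks. Leaving out Foxp1, the gene with the most peaks, changed the density to 23.9 peaks per Mb and the median distance to 63.3 kb. Width stood in for a stricter peak threshold, since the list has no p-values. No paired analysis was possible because 1 ChIP sample is labelled and its list has no replicate columns. Replicates, depth and input could not be weighed.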
